A study of Mus musculus with 12 samples.

Results

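The super-enhancers (SEs) at Tet1 and Tet2 were described here by the subregions of each that have a value for the mediator subunit MED1 and for the histone mark H3K27ac in mouse embryonic stem cells (ESCs) with and without the transcription factor ESRRB. Members were the subregions that overlap a fixed window of 490 kb around either gene on mouse build mm9. These windows held 9 of the 671 subregions with values, 6 at Tet1 and 3 at Tet2. The rule uses position only, although both genes were picked with earlier results of these data known.

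Chromatin immunoprecipitation followed by sequencing (ChIP-seq) was performed in Esrrb-/- ESCs, in which both copies of the gene are inactivated, and in control Esrrb f/f ESCs, whose copies are floxed and which the labels also call wild-type. They are called knockout and control cells below. Both were mouse ESCs grown in serum with leukemia inhibitory factor (LIF). The 12 libraries comprise 2 replicates each of MED1, H3K27ac and input per genotype, and the authors deposited 1 pooled RPKM (reads per kilobase of subregion, relative to a read total that is not stated) per subregion for each antibody and genotype, without input values. The number of clones behind the Esrrb-/- cells is not given in the sources used here, the files hold no expression values with which the cell type could be checked, and the loss of Esrrb itself cannot be read from them.

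Because replicates were pooled, the spread between replicates is unknown, nothing in the files checks a difference between genotypes against it, and p-values are not given. The reads behind each RPKM could be recovered, and the brackets below give 95% intervals from those reads, which cover counting error only. Log2 fold changes set the knockout over the control RPKM after 1 RPKM was added to each, so that negative values are lower in knockout cells, and "lower" or "higher" compares the pooled values of one pair of conditions.

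TET1 and TET2 are dioxygenases that oxidise 5-methylcytosine in DNA, the first step of active demethylation, and both are expressed in naive pluripotent cells. TET1 carries a CXXC domain that binds CpG-rich DNA, whereas TET2 lacks one. SEs are clusters of enhancers with dense binding of Mediator and of pluripotency factors, among them ESRRB, an orphan nuclear receptor that binds an extended version of the core nuclear receptor motif as a monomer. MED1 marks the Mediator co-activator that links enhancers to the transcription machinery, and H3K27ac marks active enhancers and promoters. The study divides SEs by CpG methylation into PU subregions, which stay unmethylated from ESCs to epiblast stem cells (EpiSCs), and DM subregions, which become methylated. An SE with at least 1 PU subregion is of class I, and an SE with DM subregions only is of class II.

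At this level the SEs of both genes differ in make-up. Tet1 has 3 PU and 3 DM subregions and is thus of class I, and Tet2 has 3 DM and 0 PU subregions and is of class II. The subregions are numbered here by type along each chromosome. At Tet1 they follow each other almost without a break in the order PU1, DM1, PU2, DM2, PU3 and DM3 over 14885 bp, with gaps between 4 and 574 bp. At Tet2 the 3 DM subregions are spread over 15759 bp with gaps of 5247 and 5903 bp. The subregions sum to 13841 bases at Tet1 and 4609 bases at Tet2.

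The Tet1 gene (ENSMUSG00000047146.8) lies at chr10:62267318-62361866 on the minus strand in the GENCODE annotation of the same build. Its 6 subregions all lie in intron 1 of the transcript Tet1-001, none overlaps an annotated exon, and DM3 ends 384 bp from the 5′ end of the gene. PU1 lies at chr10:62346598-62347747, DM1 at chr10:62347817-62348145, PU2 at chr10:62348194-62350446, DM2 at chr10:62350451-62355244, PU3 at chr10:62355594-62355846 and DM3 at chr10:62356421-62361482. A second start of the gene falls inside PU2. The RefSeq promoter of Tet1, matched letter for letter to mm9, lies at chr10:62350023-62350322, which puts the RefSeq gene start at 62350072. PU2 is therefore promoter-proximal by RefSeq and intronic by GENCODE.

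The Tet2 gene (ENSMUSG00000040943.7) lies at chr3:133126643-133207354, also on the minus strand. Its subregions DM1 (chr3:133181614-133182154), DM2 (chr3:133187402-133189331) and DM3 (chr3:133195235-133197372) all lie in intron 1 of the transcript Tet2-202, outside annotated exons. The RefSeq promoter of Tet2 matched mm9 at chr3:133207305-133207604, which is 9933 bp from the nearest subregion, DM3. No Tet2 subregion holds a gene start, in contrast to Tet1 PU2.

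Sequences that bear on the loss of ESRRB were searched for first. The core ESRRB motif AAGGTCA and its extended form TCAAGGTCA, which contains the core, were searched on both strands. The core was matched 5 times at Tet1, in DM1, DM2 and DM3, of which 3 matches (1 in DM2 and 2 in DM3) were the extended form, and not at all in the PU subregions of Tet1 or at Tet2. The 5 matches are shown 5′ to 3′ on the strand of the motif in mm9 with 11 bases on either side and the motif in capitals, since they are the candidate ESRRB letters of the Tet1 SE. Each stretch from the motif to the end of its window was found in no other of the 671 subregions.
Tet1 DM1, chr10:62347827-62347855, plus strand: ttctgccagtaAAGGTCAagtcagtctgg
Tet1 DM2, chr10:62351309-62351339, minus strand: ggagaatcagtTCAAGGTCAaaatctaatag
Tet1 DM3, chr10:62359688-62359716, plus strand: atagcaaattaAAGGTCAgcctggtctac
Tet1 DM3, chr10:62359792-62359822, plus strand: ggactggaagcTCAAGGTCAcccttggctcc
Tet1 DM3, chr10:62360155-62360185, plus strand: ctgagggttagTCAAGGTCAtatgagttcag

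At Tet2 the closest letters were 2 matches with 1 mismatch to TCAAGGTCA, a search added after the exact matches had been seen. A match with at most 1 mismatch occurred in 43.1% of all and 48.8% of DM subregions, and 10 times at Tet1, its exact matches included. The mismatch is T7C in DM1 and T7A in DM3, with the motif's base first and positions counted from 1 at its 5′ end. They are shown in the same way for comparison with Tet1.
Tet2 DM1, chr3:133181618-133181648, plus strand: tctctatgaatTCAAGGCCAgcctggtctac
Tet2 DM3, chr3:133195449-133195479, plus strand: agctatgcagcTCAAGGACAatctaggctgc
The 20 bases from the capitals to the end of the DM1 window occur in 15 of the 671 subregions, and those of the DM3 window in no other. The last 11 bases of this DM1 window also end the Tet1 DM3 window that lacks the extended form.

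The 250 bases upstream of the RefSeq start of Tet1 are shown because they lie within PU2, the member with the largest gain of H3K27ac. They run from 62350322 down to 62350073 on the minus strand of chr10 and match the RefSeq promoter (GRCm38.p6) exactly. CpGs are in capitals.
Tet1 promoter, upstream of the RefSeq start: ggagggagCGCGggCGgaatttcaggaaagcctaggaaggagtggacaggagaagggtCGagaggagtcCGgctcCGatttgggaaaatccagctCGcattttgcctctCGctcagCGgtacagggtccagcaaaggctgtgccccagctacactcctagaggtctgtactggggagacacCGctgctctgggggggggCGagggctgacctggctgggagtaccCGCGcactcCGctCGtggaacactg
This stretch holds 15 CpGs, and 72.7% of the 32851 RefSeq promoters hold fewer over the same length. The 250 bases upstream of the RefSeq start of Tet2 hold more, 51 CpGs, and 99.9% of RefSeq promoters hold fewer than that. The Tet1 promoter window of 300 bases matched none of the motifs searched. AAGGTCA occurs in 4.72% of all RefSeq promoters and TCAAGGTCA in 0.423%.

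Exact motif matches depend on length, so each subregion was set beside the subregions of like length, within a ratio of 0.8 either way. AAGGTCA occurred in 35.2% of all 671 subregions, 28.4% of PU and 37.7% of DM, and TCAAGGTCA in 10.3%. Per kb, AAGGTCA was matched 0.361 times at Tet1, against 0.399 over all and 0.433 over DM subregions. TCAAGGTCA was matched 0.217 times per kb at Tet1, against 0.0936 and 0.115. Tet1 DM3 and DM2 are each about as long as 16 subregions including themselves, of which 68.8% held AAGGTCA and 31.2% TCAAGGTCA. For Tet2 DM3 and DM2, which held none, the shares were 52.1% of 96 and 49.5% of 93 subregions. Of the other pluripotency motifs, the POU octamer ATTTGCAT, bound by OCT4, was matched once, in Tet1 PU1, against 13.4% of its 127 peers of like length. The SOX motif ATTGTT was matched 8 times at Tet1 and 6 times at Tet2, 5 of them in Tet2 DM3. It occurred in 42.9% of all subregions and in 59.4% of those as long as Tet2 DM3. Per kb this was 0.578 at Tet1 and 1.30 at Tet2, against 0.532 over all subregions. The KLF motif GGGNGTGG was matched 7 times at Tet1 and 3 times at Tet2, and occurred in 47.8% of all subregions. Per kb it was 0.506 at Tet1 and 0.651 at Tet2, against 0.734 over all subregions. A match describes letters only, and the binding of none of these factors was measured here.

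PU2 also stands apart from its neighbours in CpG content. It holds 114 CpGs in 2253 bases, or 5.06 per 100 bp, the 36th highest density of 671. The other 8 members lay between 0.668 (Tet1 DM2) and 1.52 (Tet1 DM1) per 100 bp, all below the median of 1.64 over all subregions. The GC content was 55.7% in PU2 and between 41.6% and 47.3% in the others.

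**Figure D1:**
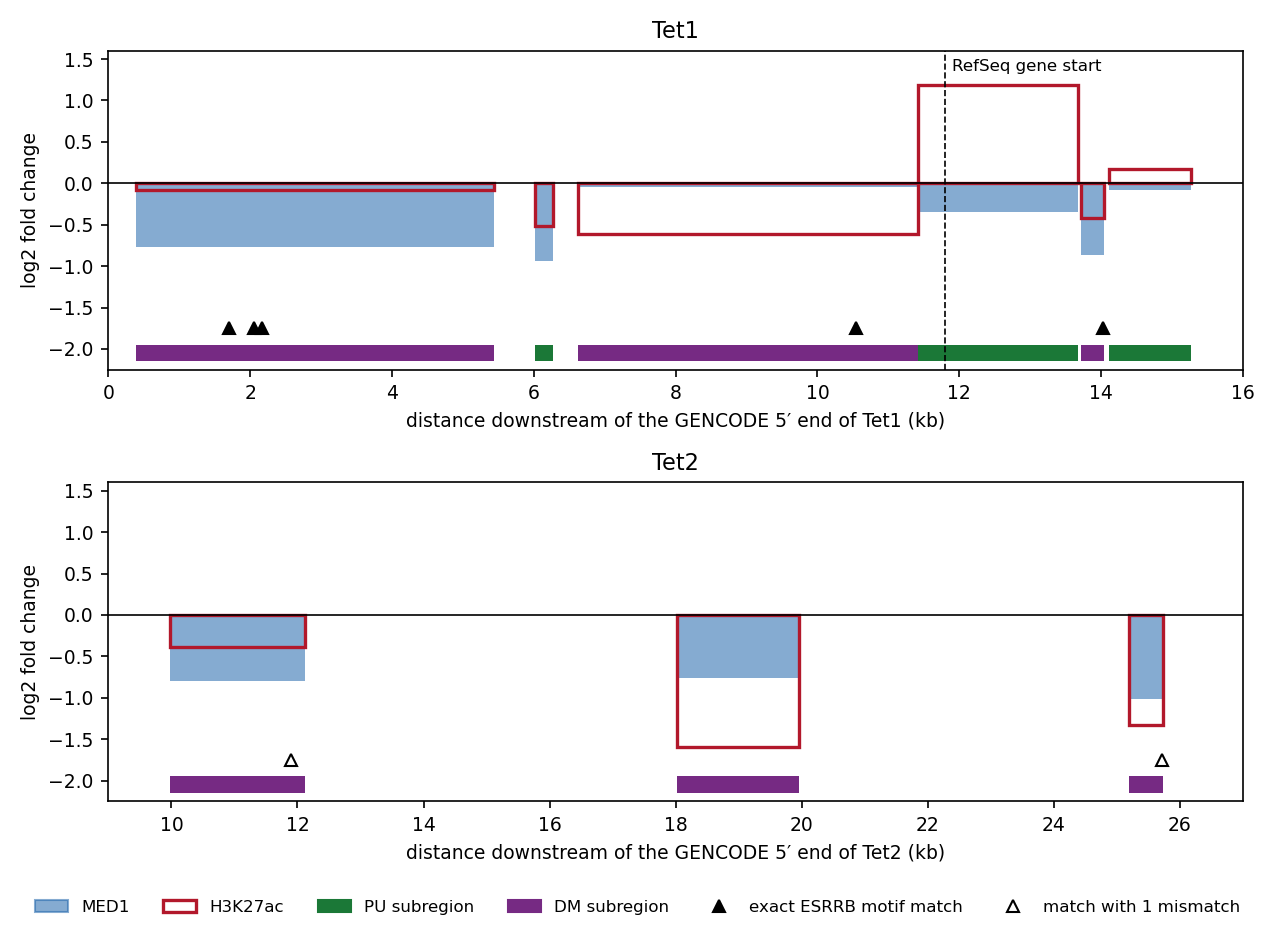
Log2 fold change of MED1 (blue, filled) and H3K27ac (red, outlined) on each subregion against the distance in kb downstream of the GENCODE 5′ end of Tet1 and Tet2, with the subregion type in a strip below and triangles at ESRRB motif matches. Open triangles mark matches with 1 mismatch at Tet2 only, and such matches at Tet1 that lack the core are not drawn. MED1 is below 0 on every subregion on the deposited scale (PU1 and DM2 are above 0 when centred on the median of all subregions), H3K27ac reaches 1.19 on Tet1 PU2 at the RefSeq start, and exact matches lie in Tet1 DM subregions only.

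MED1 on the Tet1 SE was lower in knockout cells, and the difference was uneven along it. Over all 6 subregions it was 948 RPKM in control and 661 RPKM in knockout cells, a log2 fold change of −0.52 [−0.59, −0.45] on 5574 and 2108 reads. All 6 pooled values were lower in knockout cells, as were 58.0% of all 671 subregions, although PU1 and DM2 turn positive when centred on the median of all subregions or scaled to the reads in them. MED1 was lower by at least 1.5 times on 3 of the 6, beside a background of 26.8% of all subregions and 16.4% of PU subregions. It was 2 of the 6 when scaled to the reads in all subregions, and all 6 when scaled to mapped read pairs.

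The highest MED1 level of either locus was on PU3, the shortest subregion with 253 bases. It had 2568 RPKM in control cells, the 17th highest of all subregions, and 1343 RPKM in knockout cells, a log2 fold change of −0.94 [−1.32, −0.57]. These values rest on 275 and 78 reads, and the counting function by default counts reads that only overlap the edge of so short a stretch. Among the 48 subregions of like length it was the fourth highest in control cells, where their median was 377 RPKM, so its level was high for its length too.

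DM3, the long DM subregion nearest the GENCODE 5′ end, carried 54.6% of the MED1 reads of the locus in control cells and 3 of its 5 ESRRB motif matches. Its MED1 was 1415 RPKM in control and 826 RPKM in knockout cells, a log2 fold change of −0.77 [−0.88, −0.67]. Only 1 of the other 15 subregions of like length had a lower fold change. DM1 had 581 and 317 RPKM, a log2 fold change of −0.87 with a wide interval [−1.59, −0.20] since 24 reads were left in knockout cells. PU3, DM3 and DM1 are the 3 Tet1 subregions that were lower by at least 1.5 times.

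On the promoter-proximal PU2, MED1 was 1059 RPKM in control and 834 RPKM in knockout cells, a smaller difference of −0.34 [−0.51, −0.18]. On PU1, MED1 was 589.9 and 559 RPKM, −0.078 [−0.37, 0.21], and on DM2 it was 429.7 and 417 RPKM, −0.042 [−0.21, 0.12]. The counting intervals of PU1 and DM2 include 0. DM2 and DM3 are both DM, have 4794 and 5062 bases and both hold an extended ESRRB motif, and their MED1 fold changes differed by 0.73 [0.54, 0.93]. PU and DM subregions of Tet1 overlapped in their MED1 fold changes. MED1 summed over the 3 PU subregions had a log2 fold change of −0.38 [−0.51, −0.24] and over the 3 DM subregions of −0.58 [−0.67, −0.49].

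**Figure D2:**
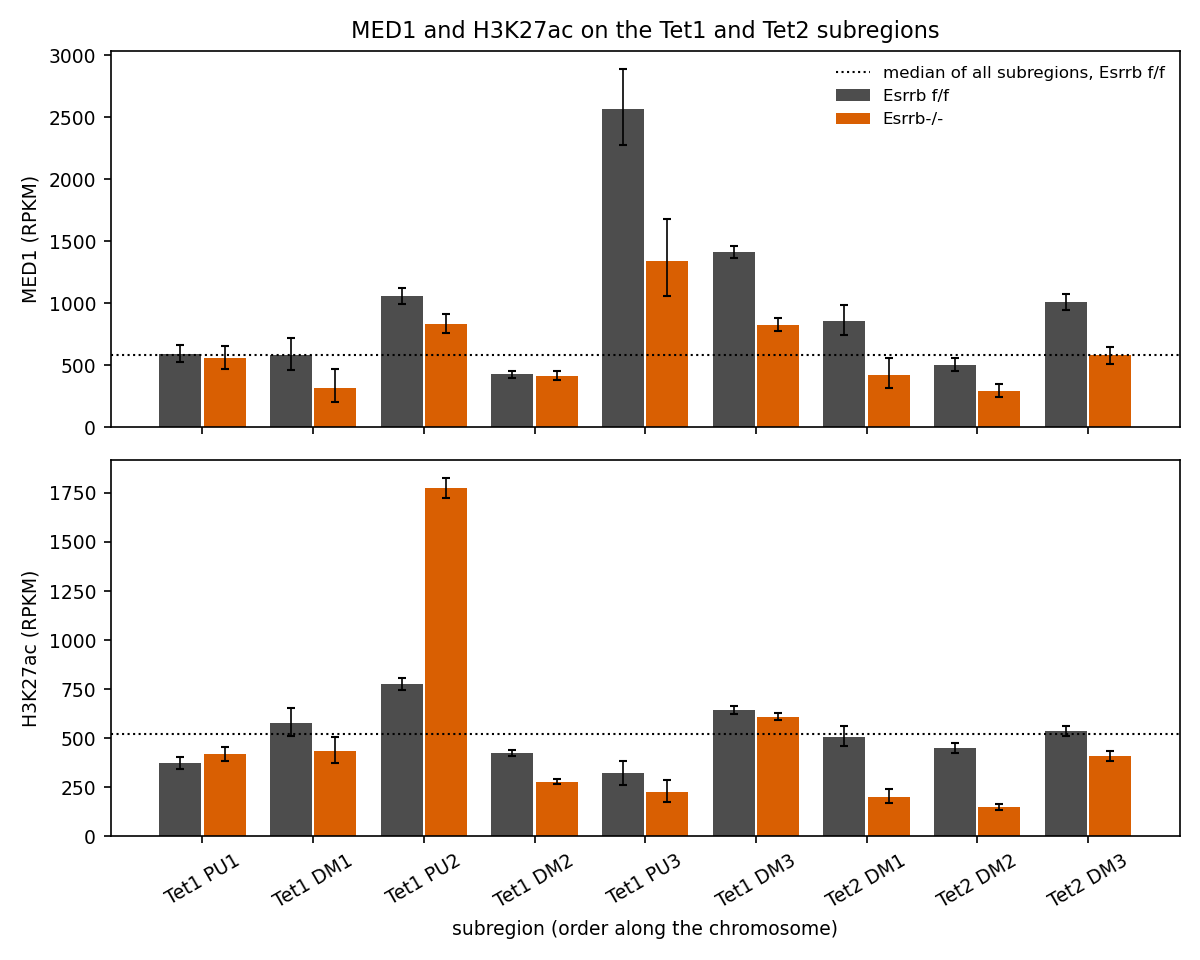
RPKM of MED1 (top) and H3K27ac (bottom) on each subregion in Esrrb f/f (grey) and Esrrb-/- (orange) ESCs, 1 pooled value per condition with 95% Poisson counting intervals, and the Esrrb f/f median of all 671 subregions as a dotted line. PU3 has the highest MED1 bar, 2568 RPKM, and PU2 in knockout cells the highest H3K27ac bar, 1776 RPKM.

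H3K27ac on the Tet1 SE differed in both directions. Over the 6 subregions it was 560.3 RPKM in control and 659 RPKM in knockout cells, a log2 fold change of 0.23 [0.19, 0.27]. The sign of this value rests on PU2, where H3K27ac was 777 RPKM in control and 1776 RPKM in knockout cells, 2.29 times higher, with a log2 fold change of 1.19 [1.12, 1.26]. Without PU2 the locus value was −0.23, and relative to the median of all subregions (0.24) it was −0.0090. The direction over the whole locus thus changes with 1 subregion and with the scaling.

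PU2 was the 1 Tet1 subregion with H3K27ac at least 1.5 times higher, beside a background of 30.6% of all subregions and 54.6% of PU subregions. Its fold change was the 43rd highest of the 183 PU subregions, so a gain of this kind was common among PU subregions. MED1 and H3K27ac parted on it, with MED1 lower and H3K27ac higher in knockout cells, which was the case for 41.5% of PU subregions. The 2 fold changes differed by −1.54 [−1.72, −1.36] on the deposited scale.

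DM2, which begins 4 bp from PU2, went the other way. Its H3K27ac was 427 RPKM in control and 279 RPKM in knockout cells, a log2 fold change of −0.61 [−0.70, −0.52], and it was the 1 Tet1 subregion with H3K27ac at least 1.5 times lower, beside a background of 15.1% (3 Tet1 subregions when centred on the median of all subregions). PU2 and DM2 differed by 1.80 [1.69, 1.92] in H3K27ac. On the deposited scale DM2 is the member where H3K27ac was lower while MED1 hardly differed, the reverse of DM3. Scaled to the reads in all subregions, MED1 and H3K27ac were 0.23 and −1.09 on DM2 and −0.50 and −0.55 on DM3. Scaled to mapped read pairs, they were −0.81 and −0.94 on DM2 and −1.55 and −0.40 on DM3.

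On the remaining Tet1 subregions H3K27ac differed less. PU1 had 373 and 419 RPKM in control and knockout cells, 0.17 [0.0018, 0.34]. DM1 had 581 and 435 RPKM, −0.41 [−0.70, −0.13]. PU3, with the highest MED1, was low in H3K27ac at 321 and 225 RPKM, −0.51 [−0.97, −0.066], the 570th of 671 in control cells. DM3 had 644 and 611 RPKM, −0.075 [−0.14, −0.012], so the subregion with most of the MED1 reads kept nearly the same H3K27ac value on the deposited scale (−0.32 relative to the median of all subregions). The sign of PU1 depends on the scaling of the libraries, being −0.16 when scaled to the mapped read pairs.

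At Tet2 both MED1 and H3K27ac were lower on all 3 subregions, where 35.3% of all subregions were lower in H3K27ac. Over the locus MED1 was 781 RPKM in control and 444 RPKM in knockout cells, a log2 fold change of −0.81 [−0.97, −0.67] on 1528 and 471 reads. H3K27ac was 497 and 275 RPKM, −0.85 [−0.94, −0.76] on 3200 and 1501 reads. The 3 MED1 values were each lower by at least 1.5 times, beside a background of 30.7% of DM subregions, and H3K27ac was lower by at least 1.5 times on 2 of 3, beside 18.0%. Scaled to the reads in all subregions, MED1 passed this fold on DM1 only, with DM2 at −0.49 and DM3 at −0.52, and H3K27ac passed it on all 3.

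DM1, the farthest from the gene start, had 859 RPKM of MED1 in control and 426 RPKM in knockout cells, −1.01 [−1.48, −0.57]. DM2 had 505 and 297 RPKM, −0.76 [−1.06, −0.48]. DM3, nearest the start, had 1009.9 and 581 RPKM, −0.80 [−0.995, −0.61]. The MED1 fold changes of the 3 subregions could not be told apart by counting error, the largest difference being −0.25 [−0.80, 0.29] between DM1 and DM2.

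H3K27ac did differ among them. It was 509 RPKM in control and 202 RPKM in knockout cells on DM1, −1.33 [−1.63, −1.04]. On DM2 it was 452 and 149 RPKM, 3.03 times lower, with a log2 fold change of −1.59 [−1.78, −1.43]. On DM3 it was 536 and 408 RPKM, −0.39 [−0.51, −0.28]. DM2 and DM1 were the 14th and 24th lowest of the 671 H3K27ac fold changes, and DM3 differed from DM2 by 1.20 (interval of DM2 minus DM3 [−1.42, −0.998]). On the deposited scale, DM1 and DM2 were the 2 members in which both MED1 and H3K27ac were lower by at least 1.5 times. This held for 7.15% of all subregions and 8.81% of DM subregions. Centred on the median of all subregions, Tet1 DM1, Tet1 PU3 and Tet2 DM3 passed this fold for both as well. Scaled to the reads in all subregions, Tet1 DM1 and Tet1 PU3 passed it for both, and Tet2 DM2 did not, with MED1 at −0.49. Scaled to mapped read pairs, Tet1 DM1, DM2 and PU3 and all 3 Tet2 subregions passed it for both.

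**Figure D3:**
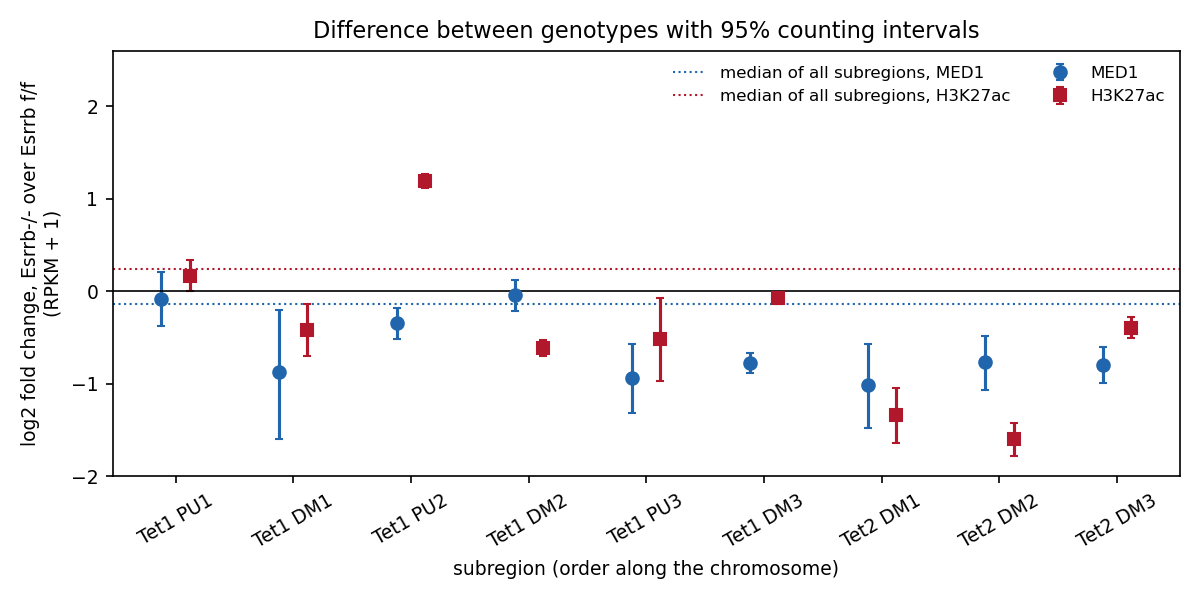
Log2 fold change (Esrrb-/- over Esrrb f/f, RPKM plus 1) of MED1 (circles) and H3K27ac (squares) per subregion with 95% counting intervals, and the medians of all 671 subregions as dotted lines. The 3 Tet2 subregions lie below 0 for both, and Tet1 PU2 holds the highest H3K27ac value, 1.19, with MED1 at −0.34.

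Set side by side, the SEs differed more in H3K27ac than in MED1. The MED1 fold change of Tet1 minus that of Tet2 was 0.29 [0.13, 0.46], and the H3K27ac fold change of Tet1 minus that of Tet2 was 1.08 [0.99, 1.18]. Both differences are free of the scaling between libraries. With DM subregions only, they were 0.23 [0.059, 0.41] for MED1 and 0.59 [0.49, 0.69] for H3K27ac, so the H3K27ac of the Tet1 DM subregions was also less reduced than that of Tet2. MED1 minus H3K27ac, in contrast, depends on the scaling. On the deposited scale it was −0.75 [−0.84, −0.67] at Tet1 and 0.037 [−0.14, 0.21] at Tet2. Scaled to the reads in all subregions, MED1 and H3K27ac were −0.24 and −0.25 at Tet1. At Tet2 they were −0.54 and −1.33 on that scale.

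The long DM3 subregion of Tet1 and DM3 of Tet2 are the members nearest the GENCODE 5′ end of each gene, 384 and 9982 bp away. By RefSeq, PU2 is the Tet1 member at the gene start. The MED1 fold changes of these DM3 subregions differed by 0.023 [−0.20, 0.25]. In H3K27ac they differed by 0.32 [0.19, 0.45]. Tet1 DM3 has 3 exact ESRRB motif matches and Tet2 DM3 has none. Over all DM subregions, 46.7% of the 184 with AAGGTCA and 21.1% of the 304 without it were lower in MED1 by at least 1.5 times (median lengths 1464 and 631.5 bases). The 3 Tet2 subregions, without a match, were among the 21.1%. Of the Tet1 DM subregions, all with a match, DM1 and DM3 were among the 46.7% and DM2 was not. Whether ESRRB bound any of these letters was not tested.

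The division of reads among the subregions differed between genotypes beyond counting error for both antibodies at Tet1 and for H3K27ac at Tet2. PU2 carried 22.6% [21.8, 23.4] of the H3K27ac reads on the Tet1 subregions in control cells and 43.9% [43.0, 44.9] in knockout cells, although it makes up 16.3% of their length. The share of DM2 was 26.4% in control and 14.7% in knockout cells, and that of DM3 was 42.0% and 33.9%. For MED1 the share of DM3 was 54.6% [53.3, 55.9] and 45.7% [43.6, 47.9], while that of DM2 was 15.7% and 21.9%. The MED1 shares of PU2, 18.2% [17.2, 19.2] and 20.5% [18.8, 22.3], overlapped in their intervals. At Tet2 the MED1 shares of DM1, DM2 and DM3 were 12.9%, 27.1% and 60.0% in control and 11.3%, 28.0% and 60.7% in knockout cells, with overlapping exact binomial intervals. In H3K27ac the share of Tet2 DM3 was 49.97% in control and 68.8% in knockout cells, and that of DM2 was 38.0% and 22.7%. These shares do not depend on the scaling between libraries.

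**Figure D4:**
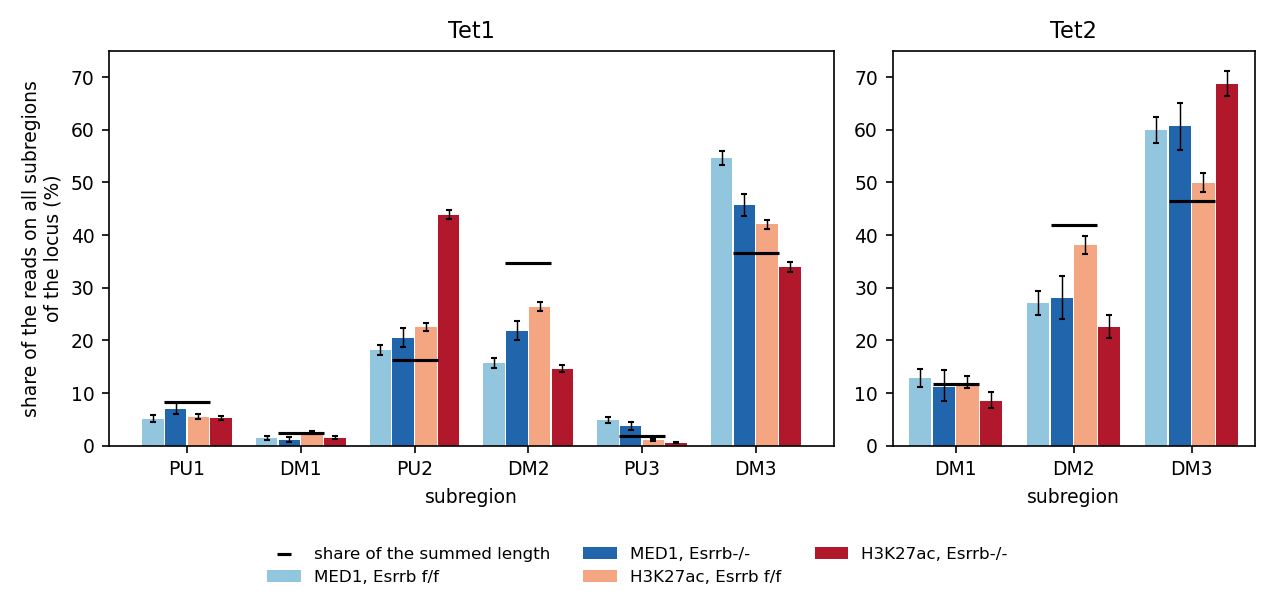
Share (%) of the MED1 (blue) and H3K27ac (red) reads of each locus on each subregion in Esrrb f/f (light) and Esrrb-/- (dark) ESCs, with exact 95% binomial intervals and black dashes at the share of summed length. The H3K27ac share of Tet1 PU2 is 22.6% and 43.9%, and the MED1 shares at Tet2 overlap between genotypes.

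The scaling of the pooled values moves every fold change of an antibody alike. The totals implied by the deposited values are far below the mapped read pairs, so the deposited fold changes are not relative to whole libraries. Scaling to mapped read pairs in place of the deposited totals shifts MED1 by −0.77 and H3K27ac by −0.33, and scaling to the reads in all 671 subregions shifts them by 0.28 and −0.48. The medians of all subregions were −0.14 for MED1 and 0.24 for H3K27ac. Relative to these, MED1 was −0.38 over Tet1 and −0.67 over Tet2, and H3K27ac was −0.0090 over Tet1 and −1.09 over Tet2. On the same scale MED1 on Tet1 PU1 and DM2 was 0.063 and 0.098, and H3K27ac on Tet1 PU2 was 0.95. The 3 Tet2 subregions stayed below 0 for both antibodies, and Tet1 PU2 above 0 for H3K27ac, on each of these scales.

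**Figure D5:**
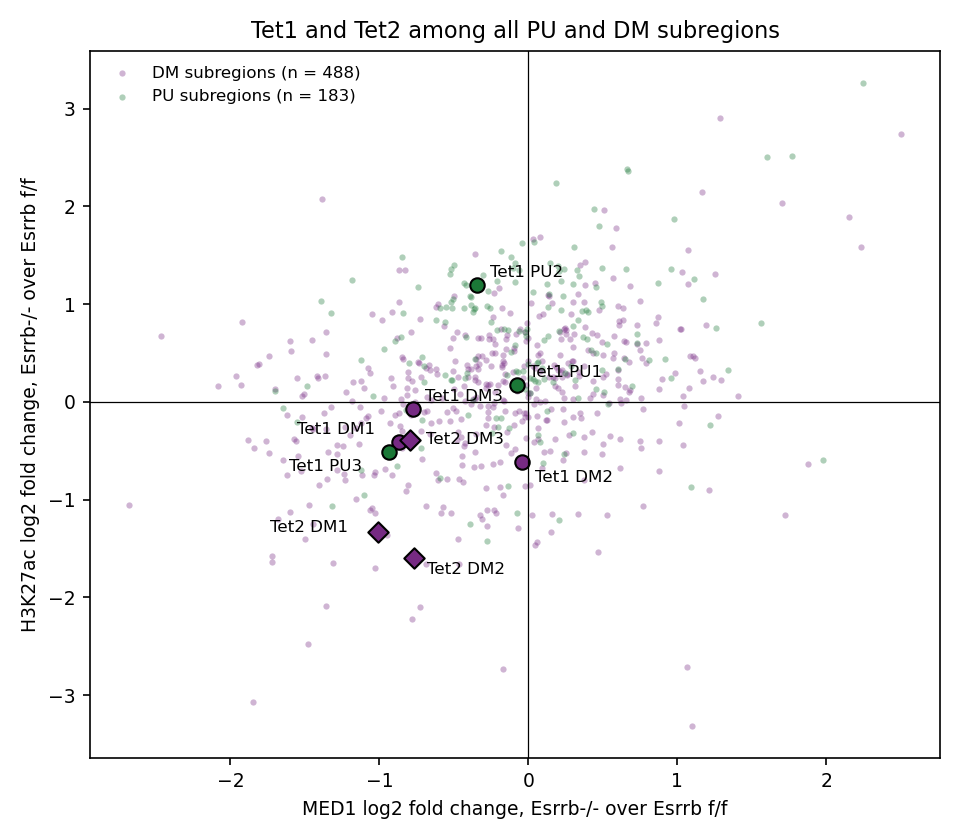
H3K27ac against MED1 log2 fold change of all 671 subregions, 1 point each, with the 6 Tet1 (circles) and 3 Tet2 (diamonds) subregions outlined and named, PU in green and DM in purple. Tet2 DM1 and DM2 lie at the lower left, and Tet1 PU2 at the upper left with MED1 −0.34 and H3K27ac 1.19.

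Neighbouring subregions at most 12.5 kb apart were joined into 225 blocks to place both loci among others, and each locus was 1 block. By H3K27ac, Tet2 was the ninth lowest of 225 blocks and the eighth lowest of the 96 with DM only, whose median was 0.11. By MED1 it was the 37th lowest of those 96, whose median was −0.54. Tet1 was the 32nd lowest by MED1 and the 31st lowest by H3K27ac of the 129 blocks with a PU subregion, whose medians were −0.15 and 0.55. Tet2 thus stood nearer the end of the range in H3K27ac than in MED1, and Tet1 lay in the lower part of its class in both.

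The blocks of at least 2 subregions most like Tet1 and Tet2 were found by their distance in the plane of both fold changes, and are named by the nearest protein-coding gene start. Closest to Tet1 were blocks near Hspb8 (MED1 −0.45 and H3K27ac 0.26), Tgif1 (−0.60 and 0.20) and BC096441 (−0.49 and 0.32), at distances of 0.077 to 0.095. Closest to Tet2 were blocks near Elovl6 (MED1 −0.64 and H3K27ac −0.80), Otx2 (−0.98 and −0.9996) and Klf4 (−1.19 and −0.85), at distances of 0.18 to 0.38. Elovl6 encodes a fatty acid elongase, Otx2 a homeobox factor of the primed epiblast, and Klf4 a Krüppel-like factor of naive pluripotency. The nearest blocks to Tet2 thus lay farther away than those to Tet1. The blocks near Hspb8 and Otx2 hold 1 PU subregion each, and the others named here hold DM subregions only. Both loci thus had near blocks of unlike make-up.

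Among 21 other genes of DNA methylation and its removal or of its control in ESCs, 6 had a subregion within 100 kb. The third TET gene, Tet3, had none, and neither had the DNA methyltransferase genes Dnmt1, Dnmt3a and Dnmt3b. The 6 genes shared 27 subregions, since Dppa3 and Nanog lie in the same stretch of chromosome 6, and 7 of these were lower in MED1 by at least 1.5 times (26.8% over all subregions) and 3 higher (14.8%), with a median log2 fold change of −0.14. In H3K27ac 4 were lower (15.1% over all subregions) and 2 higher (30.6%) by at least 1.5 times, with a median of −0.038.

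Subregions are assigned to these genes by distance alone. Gadd45a is a stress-induced gene linked to DNA repair and demethylation. The 1 DM subregion within 100 kb of it was lower in both MED1 and H3K27ac, as Tet2 was. Both were lower by at least 1.5 times there, beside 8.81% of all DM subregions. This subregion had 746 RPKM of MED1 in control and 274 RPKM in knockout cells, −1.44, and 663 and 277 RPKM of H3K27ac, −1.25. Zfp57, which protects the methylation of imprinted loci, had 8 subregions, with MED1 at least 1.5 times lower on 4 (26.8% over all subregions) and higher on 1, and H3K27ac at least 1.5 times lower on 3 (15.1%). Around Prdm14, a repressor of DNA methyltransferases in ESCs, MED1 was at least 1.5 times lower on 0 of 7 subregions and higher on 1. For Nanog, a core pluripotency factor, MED1 was at least 1.5 times lower on 2 of 10 subregions and higher on 1. For Dppa3, a regulator of DNA methylation in the early embryo, MED1 was lower on 2 of 7 by this fold and higher on 1. Both stand beside the same 26.8% lower and 14.8% higher. These counts share subregions. Trim28, a co-repressor that binds with ZFP57, had 1 DM subregion with MED1 at 1539 and 1276 RPKM.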

How the data were processed

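MED1 and H3K27ac ChIP-seq and input libraries of Esrrb-/- and Esrrb f/f ESCs were described by the study. The authors trimmed reads with Trimmomatic, aligned them to mm9 with Bowtie2, removed duplicates with Picard and blacklisted reads with bedtools, and counted overlaps with GenomicRanges (versions not given in the sources used here). They deposited RPKM per subregion and condition with replicates pooled, and the total behind them is not stated but follows from the step described below. All 4 columns were joined on coordinates and type.

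Each RPKM times the subregion length (end minus start) is a multiple of a step shared by the column, taken as 1 read, and 100% of values came out whole within 0.001. The step implies read totals of 424897 (MED1) and 1396982 (H3K27ac) in Esrrb f/f and 230504 and 1183707 in Esrrb-/- ESCs. These totals are far below the mapped read pairs given by the study, so the deposited RPKM are not relative to whole libraries. The recovered reads sum to 291893 (MED1) and 618492 (H3K27ac) in Esrrb f/f and 130733 and 730828 in Esrrb-/- ESCs, and between 24 and 4735 lay behind a value of a member. The MED1 intervals are wider for that reason. Intervals of fold changes are exact conditional binomial ones, those of differences between fold changes conditional odds ratio ones, those of RPKM exact Poisson ones and those of shares exact binomial (Clopper-Pearson) ones. A locus value divides the summed reads of its subregions by their summed length. The pseudocount was 1 RPKM, which understates changes of low values. Alternatives (pseudocount, scaling to the mapped read pairs given by the study or to the reads in the subregions, centring, and leaving out subregions) are given in the closing section. No test was made between genotypes, and input values were not used here.

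Sequence came from the mm9 genome and annotation from GENCODE M1. The RefSeq promoters of Tet1 and Tet2 were placed by exact match, 2 of 2. All subregions of both windows are named, with the listed methylation genes and the 3 nearest blocks of each locus. The members and lists were chosen with earlier results of these data known. The functions were tested on simulated data. Scripts ran in Python 3.11.15 with scipy 1.17.1, pandas 2.3.3, numpy 2.4.6 and matplotlib 3.10.9.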

Additional observations from a re-analysis of the deposited data

How the results depend on the processing

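No paired analysis was possible because the deposited values pool the replicates. Values are log2 fold changes. Scaled to the mapped read pairs, to the reads in all subregions, and centred on the median of all subregions, MED1 over Tet1 was −1.29, −0.24 and −0.38, and MED1 over Tet2 was −1.58 and −0.54 under the first and second. H3K27ac over Tet1, 0.23 as reported, was below 0 under all 3, at −0.092, −0.25 and −0.0090, and over Tet2 it was −1.18, −1.33 and −1.09. H3K27ac on Tet1 PU1, 0.17 as reported, was −0.16, −0.31 and −0.072. These scalings move all values of an antibody together. With the median or the mean of subregion values, H3K27ac over Tet1 was −0.24 or −0.042, and over Tet2 −1.33 or −1.11. With DM subregions only, H3K27ac over Tet1 was −0.26, and Tet1 minus Tet2 was 0.59. Leaving out each subregion in turn, MED1 ranged from −0.63 to −0.26 over Tet1, from −0.84 to −0.79 over Tet2 and from 0.18 to 0.55 for Tet1 minus Tet2, the value nearest 0 for Tet1 and the highest difference being those without Tet1 DM3. H3K27ac ranged from −0.23 (without PU2) to 0.45 over Tet1, from −1.53 (without DM3) to −0.53 (without DM2) over Tet2, and from 0.62 (without Tet1 PU2) to 1.76 (without Tet2 DM3) for the difference. A pseudocount of 0.1 or 10 RPKM and subregions of at least 500 bp left the locus values within their counting intervals. Of 90 alternatives for single subregions, 7 changed sign, 3 of them H3K27ac on PU1 (above) and the other 4 MED1 on PU1 (0.20 and 0.063) and DM2 (0.23 and 0.098), scaled to the reads in all subregions and centred, where the counting interval of the reported value includes 0. Of all 671 subregions, MED1 was lower by at least 1.5 times on 180 as deposited, on 457 scaled to mapped read pairs and on 118 scaled to reads in all subregions, and higher on 99, 12 and 166. H3K27ac was lower on 101, 166 and 209 and higher on 205, 118 and 82. With a fold of 2, MED1 was lower on 96 and higher on 43, and H3K27ac on 54 and 94. The MED1 intervals of the shortest subregions, which rest on 24 to 275 reads, are wide, and differences among these subregions were not computed. The replicate spread is unknown throughout.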
